A study of Homo sapiens and Mus musculus with 5 samples.

Results

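Of 1378 reporter alleles that were present in all 4 count tables with at least 500 counts on average in the plasmid input, 16 were more abundant in RNA than in the input in every one of the 11 RNA libraries. They are 1.16% of those alleles and came from 1625 alleles listed in any table. An allele was chosen where its share of the library total in RNA, divided by its mean share in the input, gave a log2 ratio above 0.5 in all 11 libraries, with no RNA count of 0. The ratios chose the members, so their values in what follows are a description and carry no test. The strongest was allele 2 at position 136050568 of chromosome 3, inside PPP2R3A, which was chosen in 2 placements and reached a log2 ratio of 3.58.

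The assay was a form of STARR-seq, in which a cloned fragment of DNA sits in a reporter and is copied into its own RNA. A fragment with enhancer activity raises the transcription of the reporter that carries it, so that its share of the RNA exceeds its share of the plasmid pool. Enhancers often act in some cell types and not in others, because they are read by transcription factors that differ between cells. Fragments in this library carried common variants linked to schizophrenia, and the series asks which of them are active and whether their alleles differ.

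There were 3 RNA libraries from SH-SY5Y (human neuroblastoma), 3 from Neuro-2a (mouse neuroblastoma), 2 from PC-12 and 3 from HEK-293T (human embryonic kidney). PC-12 derives from a pheochromocytoma of the rat, although its organism is labelled as mouse, and its libraries are numbered 1 and 3. All were transfected with the same plasmid library and share 3 input libraries, DNA1 to DNA3, amplified from that pool. The labels name no other treatment of any line. The tables hold reporter fragments and no endogenous genes, so the identity of the lines was not checked here. Fragments placed a SNP in up to 3 ways: 50 bases in front and 150 behind, 100 on each side (the centred placement), or 150 in front and 50 behind. The placements of 1 SNP overlap and are not independent sequences. Alleles are called 1 and 2 as in the tables. Their bases were not used here, and neither were the fragment sequences.

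Libraries numbered 1 stood apart from the others in each line. In the libraries numbered 1, the share of the 1378 alleles with a log2 ratio above 0.5 was 19.8% for SH-SY5Y, 18.7% for Neuro-2a, 16.8% for PC-12 and 14.3% for HEK-293T. It was 24.2% and 25.3% in SH-SY5Y replicates 2 and 3, 25.2% and 25.4% in those of Neuro-2a, 25.8% in PC-12 replicate 3, and 26.5% and 23.2% in HEK-293T replicates 2 and 3. Without the libraries numbered 1, 155 alleles would meet the limit in all libraries that remain, the 16 necessarily among them. The 16 members made up 3.11% to 3.68% of the RNA counts in the libraries numbered 1 and 4.50% to 5.84% in the other 7, and 1.29% to 1.31% of the input counts. RNA totals lay between 5875437 and 10201521 counts, and those of the input between 6380682 and 8421333. Of the 16, 13 had a lower mean log2 ratio in the libraries numbered 1 than in the others, by a median over the 16 of -0.53, where the 1033 of the 1378 alleles with no RNA count of 0 had a median of 0.25. The lowest value of a member came from a library numbered 1 in 11 cases. Counts of the members ran from 735 to 126886 in single RNA libraries. The labels name no day or batch for a replicate number, and its part in the results was not tested.

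The 16 alleles lay on 16 fragments of 14 SNPs on 11 chromosomes. Gene names are those of GRCh38.p14 and hold only if that is the build of the positions, which the labels and file headers do not state. On that build 9 of the 14 SNPs lay inside a protein-coding gene, as did 220 of the 327 SNPs of the whole library that were named by position. Whether they lie in exons or introns was not determined. No fragment with a member overlapped the window listed around the start of a RefSeq gene. The 3 placements were represented about evenly, with 5 members at 50 bases in front, 6 at 100 and 5 at 150. Allele 2 accounted for 12 of the 16, where 52.5% of the 1378 alleles were allele 2.

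Ranked by the lowest value over the 11 libraries, the highest 2 members were both on chromosome 3. PPP2R3A, at 135965728 to 136147894, encodes one of the regulatory subunits that direct protein phosphatase 2A. Allele 2 of its SNP with 100 bases in front had 64466, 100611 and 126886 RNA counts in SH-SY5Y, 27924, 87247 and 74939 in Neuro-2a, 48611 and 100754 in PC-12, and 32080, 71502 and 104545 in HEK-293T, against 10696, 9746 and 12038 in the input. As log2 ratios these were 2.12, 3.27 and 3.58 in SH-SY5Y, 1.69, 3.07 and 3.02 in Neuro-2a, 2.10 and 3.24 in PC-12, and 1.85, 2.65 and 3.34 in HEK-293T. Each of the 4 libraries numbered 1 lay below all of the other 7. The same allele with 150 bases in front had log2 ratios of 2.47, 2.55 and 3.11 in SH-SY5Y, 1.24, 1.71 and 2.08 in Neuro-2a, 2.27 and 2.52 in PC-12, and 2.00, 2.79 and 2.54 in HEK-293T. Its Neuro-2a libraries were all lower than its SH-SY5Y libraries, and lower than its PC-12 libraries. The lowest value of the pair was 2.36 times the input.

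With 50 bases in front, both alleles of the PPP2R3A SNP were on the other side of the input. Allele 2 had log2 ratios from -3.12 to 0.22 with a median of -1.70, and 10 of 11 were below 0. Allele 1 ran from -3.39 to -0.15, all 11 below 0. These alleles were not chosen by the rule and could be tested against the input. In edgeR's quasi-likelihood test, after Benjamini-Hochberg adjustment, allele 2 fell below the input in SH-SY5Y at a fitted log2 activity of -2.34 ± 0.26 (SE, n = 3 RNA libraries, adjusted p = 0.0103). It was also below in PC-12 at -1.31 ± 0.13 (SE, n = 2, edgeR adjusted p = 0.0126), as was allele 1 at -1.21 ± 0.10 (SE, n = 2, edgeR adjusted p = 0.0087). Alleles 2 and 1 had values of -0.54 and -0.44 in Neuro-2a and of -1.88 and -1.70 in HEK-293T, and allele 1 had -1.51 in SH-SY5Y, none past the threshold. Fitted activity uses TMM scaling (trimmed mean of M values), which places the typical allele near 0. That scaling raises log2 ratios of the 1378 alleles by 0.05 to 0.31 over those from library totals, with a median of 0.16. The PC-12 values rest on 2 libraries.

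The SNP at position 19391511 of chromosome 17 also had a pair of members, on different alleles. It lies 4.3 kb from the nearest protein-coding gene, MFAP4 at 19383445 to 19387190, which encodes a protein of the extracellular matrix. Allele 2 with 150 bases in front had log2 ratios of 1.19, 2.03 and 2.07 in SH-SY5Y, 1.33, 2.24 and 2.06 in Neuro-2a, 1.65 and 2.16 in PC-12, and 1.04, 2.00 and 2.01 in HEK-293T. Allele 1 with 100 bases in front had 0.89, 1.75 and 1.62 in SH-SY5Y, 1.16, 1.99 and 1.91 in Neuro-2a, 1.25 and 1.37 in PC-12, and 0.89, 1.55 and 1.46 in HEK-293T. In both the libraries numbered 1 were below all the others, and the 4 lines overlapped. With 50 bases in front, allele 1 spanned -1.82 to 1.18 with a median of 0.10. Allele 1 with 150 bases in front and allele 2 with 50 had no counts in any library.

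Members at 2 SNPs 18.7 kb apart on chromosome 15 both had ZSCAN2, a zinc finger gene at 84601009 to 84623716, as the nearest protein-coding gene. Position 84581411 lies 19.6 kb from it, and its allele 2 with 50 bases in front had log2 ratios of 1.37, 2.59 and 3.22 in SH-SY5Y, 1.20, 3.19 and 2.49 in Neuro-2a, 1.38 and 2.82 in PC-12, and 0.92, 2.73 and 2.58 in HEK-293T. The libraries numbered 1 did not overlap the others. Position 84562751 lies inside the transcribed pseudogene UBE2Q2P1, and its allele 2 with 150 bases in front ranged from 0.58 to 2.65 with a median of 2.01, again with no overlap between the libraries numbered 1 (0.58 to 1.01) and the others (1.60 to 2.65). The labels do not say how reads that could match a second copy were counted. The centred placement of position 84581411 gave allele 2 log2 ratios of 0.61 to 5.55, above 0.5 in all 11 libraries, but its input mean of 426.0 counts fell short of 500. At position 84562751 the 3 alleles in the other placements had medians of -0.45, -0.50 and -0.78.

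ALG12 encodes a mannosyltransferase that builds the sugar precursor for protein N-glycosylation, and lies at 49859311 to 49918438 of chromosome 22. Allele 1 at position 49909882 with 50 bases in front had log2 ratios of 1.43, 2.64 and 2.28 in SH-SY5Y, 1.26, 1.96 and 2.54 in Neuro-2a, 1.33 and 2.56 in PC-12, and 1.09, 2.52 and 2.23 in HEK-293T. It was the sixth member in which the libraries numbered 1 lay below all the others. That pattern held for 14.6% of the 1033 alleles with no RNA count of 0, the members included. In the centred placement allele 1 stayed near the input, from -0.44 to 0.05, while allele 2 ran from -0.23 to 0.48 in the libraries numbered 1 and from 1.91 to 2.69 in the others.

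MAD1L1, at 1815795 to 2232945 of chromosome 7, encodes a protein of the mitotic spindle checkpoint. In these data allele 2 of position 1977810 with 50 bases in front had log2 ratios of 1.33, 1.45 and 1.69 in SH-SY5Y, 1.45, 1.76 and 1.66 in Neuro-2a, 1.24 and 1.65 in PC-12, and 1.35, 1.02 and 1.34 in HEK-293T. Neuro-2a was above HEK-293T in every library, and the other lines overlapped. ANKRD27, at 32597006 to 32675180 of chromosome 19, encodes a regulator of Rab GTPases in membrane traffic. Its allele 2 of position 32672137 with 150 bases in front had 1.40, 0.84 and 1.00 in SH-SY5Y, 1.02, 1.08 and 1.05 in Neuro-2a, 0.95 and 0.91 in PC-12, and 0.97, 0.96 and 0.70 in HEK-293T. Here the Neuro-2a libraries (SD 0.03, n = 3) lay above those of HEK-293T and PC-12. Its mean log2 ratio was 1.08 in the libraries numbered 1 and 0.93 in the others, so that it was among the 3 members that were not lower on average in those numbered 1.

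ANKRD63, a gene for an ankyrin repeat protein at 40278372 to 40283064 of chromosome 15, held another of those 3. Allele 2 at position 40279991 with 50 bases in front had log2 ratios of 1.48, 0.66 and 1.38 in SH-SY5Y, 1.60, 1.5 and 1.86 in Neuro-2a, 1.37 and 2.04 in PC-12, and 1.40, 1.28 and 1.33 in HEK-293T. The value of 0.66 in SH-SY5Y replicate 2 was the lowest, and Neuro-2a lay above both SH-SY5Y and HEK-293T in all libraries. MSRA, at 10054292 to 10428891 of chromosome 8, encodes an enzyme that repairs oxidised methionine. The member there, allele 2 of position 10388815 with 50 bases in front, had 1.01, 1.32 and 1.49 in SH-SY5Y, 1.12, 1.80 and 2.18 in Neuro-2a, 1.18 and 1.53 in PC-12, and 0.78, 1.04 and 1.37 in HEK-293T. The lines overlapped. With 150 bases in front the same MSRA allele was below the input in all 11 libraries, from -4.37 to -0.45.

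LIMA1, at 50175788 to 50283520 of chromosome 12, encodes an actin-binding protein. Allele 1 at position 50187864 with 150 bases in front had log2 ratios of 0.76, 0.82 and 0.90 in SH-SY5Y, 0.64, 1.22 and 1.29 in Neuro-2a, 1.30 and 1.27 in PC-12, and 0.96, 1.12 and 1.05 in HEK-293T. PC-12 was above HEK-293T and HEK-293T above SH-SY5Y with no overlap, while Neuro-2a overlapped each of the other lines. Its input was the least even among the members, with a coefficient of variation of 10.3% over DNA1 to DNA3. OTUD7B, at 149937812 to 150067653 of chromosome 1, encodes a deubiquitinase. Its member, allele 2 of position 150059494 in the centred placement, had 0.94, 1.72 and 1.53 in SH-SY5Y, 0.89, 1.49 and 0.63 in Neuro-2a, 0.72 and 1.48 in PC-12, and 0.82, 1.36 and 1.51 in HEK-293T, with all lines overlapping.

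The remaining 3 members, all in the centred placement, were the closest to the limit of 0.5. Allele 1 at position 73610828 of chromosome 2, 0.9 kb past the end of ALMS1, a gene for a centrosomal protein, ranged from 0.57 to 2.27 with a median of 1.35. Its mean was 1.87 ± 0.57 in PC-12 (SD, n = 2) and 1.14 ± 0.42 in Neuro-2a (SD, n = 3). Inside DPEP1, which encodes a dipeptidase, allele 2 of position 89631217 on chromosome 16 ranged from 0.53 to 2.70 with a median of 1.31. In the transcribed pseudogene FAM86B3P, allele 2 of position 8240516 on chromosome 8 ranged from 0.52 to 2.06 with a median of 0.94. The members in DPEP1 and FAM86B3P had the scarcest input, with means of 832.3 and 625.7 counts, against 1584.7 to 12827.7 for the other members. Just outside stood allele 1 of a centred fragment in MPHOSPH9 at a lowest log2 ratio of 0.49, allele 1 of the PPP2R3A SNP with 150 bases in front at 0.49, and allele 1 of a centred fragment in EEFSEC at 0.47. Each of those 3 exceeded 0.5 in 10 of 11 libraries.

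The partner allele, which sits on the same fragment and differs from the member at the SNP, was present for 12 of the 16 members. The other 4 partners had no counts in any library. Of the 12, 11 had a median log2 ratio above 0.5, where 20.5% of the 1378 alleles did. Partners were tested against the input over the whole table of each line, in which edgeR called 7.43% of alleles above it in SH-SY5Y, 4.08% in Neuro-2a, 5.64% in PC-12 and 1.35% in HEK-293T. Of the 12 partners, 5 passed in SH-SY5Y, 3 in Neuro-2a, 4 in PC-12 and 3 in HEK-293T, all above the input. In at least 1 line 9 different partners passed, but the share of all alleles that did so was not computed. Each fit set 3 RNA libraries of a line, or 2 in PC-12, against the same 3 input libraries, so the calls of the lines are not independent of one another.

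One partner, PPP2R3A allele 1 with 150 bases in front, passed in every line. Its fitted log2 activity in edgeR's quasi-likelihood test was 1.71 ± 0.30 in SH-SY5Y (SE, Benjamini-Hochberg adjusted p = 0.0267), 0.91 ± 0.14 in Neuro-2a (adjusted p = 0.026), 1.86 ± 0.17 in PC-12 (adjusted p = 0.0114) and 1.57 ± 0.17 in HEK-293T (adjusted p = 0.0242). In the centred placement allele 1 passed in SH-SY5Y at 1.59 ± 0.36 (edgeR adjusted p = 0.0436) and in PC-12 at 1.89 ± 0.31 (edgeR adjusted p = 0.0369). Without SH-SY5Y replicate 2 both SH-SY5Y calls were lost, with edgeR adjusted p of 0.0527 for the longer front and 0.0535 for the centred one. Allele 2 of the ALG12 fragment, the partner of the member, passed in SH-SY5Y at 1.60 ± 0.22 (edgeR adjusted p = 0.0152), in PC-12 at 1.95 ± 0.21 (edgeR adjusted p = 0.0158) and in HEK-293T at 1.36 ± 0.14 (edgeR adjusted p = 0.0242). In Neuro-2a its log2 ratios were 1.20, 1.06 and -4.22, and it did not pass.

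Beside the ANKRD63 member, partner allele 1 spanned a wide range. Its log2 ratio lay between -0.86 and 1.5 in the libraries numbered 1 and between 4.26 and 5.11 in the other 7, and its input mean was 760.0 counts against 4415.3 for the member. It passed in SH-SY5Y at a fitted log2 activity of 4.49 ± 1.03 (edgeR adjusted p = 0.0442), and without SH-SY5Y replicate 2 or 3 the edgeR adjusted p was 0.0936 or 0.0909. Partner allele 1 of the DPEP1 member also ranged widely, from 1.06 to 4.60 with a median of 3.71, and had a count of 0 in SH-SY5Y replicate 2. It passed in Neuro-2a at 4.03 ± 0.80 (edgeR adjusted p = 0.0496), a call lost without replicate 2 or 3 of that line (edgeR adjusted p = 0.0727 and 0.0771). Both were more active than the member in most libraries: the member was the higher in 3 of 11 for ANKRD63 and in 0 of 10 for DPEP1.

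A single partner, allele 1 at position 84562751 of chromosome 15, had a median below 0.5. Its log2 ratios ran from 0.35 to 1.04 in the libraries numbered 1 and from -0.93 to 0.16 in the others, opposite in order to the member on the same fragment. The member was higher in 10 of 11 libraries, with a median difference of 2.17 on the log2 scale. That difference was -0.03 to 0.23 in the libraries numbered 1 and 1.90 to 3.05 in the others.

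Other partners passed in 1 line each. They were allele 1 of the ANKRD27 fragment in Neuro-2a at a fitted log2 activity of 1.06 ± 0.14 (edgeR adjusted p = 0.0225), allele 1 of the MSRA fragment in PC-12 at 1.08 ± 0.15 (edgeR adjusted p = 0.0266), and allele 2 of the ALMS1 fragment in HEK-293T at 1.34 ± 0.17 (edgeR adjusted p = 0.035). The last had a count of 0 in Neuro-2a replicate 3 and in PC-12 replicate 3, and log2 ratios of -1.57 and -2.56 in SH-SY5Y replicates 1 and 2. Allele 1 of the fragment in FAM86B3P passed in SH-SY5Y at 0.76 ± 0.17 (edgeR adjusted p = 0.0401), and without replicate 2 or 3 of that line edgeR gave adjusted p of 0.0731 and 0.0722. The partners at MFAP4, OTUD7B and position 84562751 passed in no line. At MFAP4 allele 2 in the centred placement lay between 2.30 and 2.90 in the libraries numbered 1 and between -0.05 and 2.41 in the others.

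Alleles in the other placements of the 14 SNPs lay on both sides of the input. Of 43 such alleles in any table, 42 were in all 4, with a median of their median log2 ratios of 0.34, where the 1378 alleles had -0.23. Of the 42, 18 had a median above 0.5 and 5 had one below -0.5. By edgeR 8 passed above the input in SH-SY5Y, 4 in Neuro-2a, 4 in PC-12 and 3 in HEK-293T. Of all alleles 7.43%, 4.08%, 5.64% and 1.35% did so in the same order of lines. Below the input were 2, 0, 2 and 1 in that order, against 5.51%, 1.7%, 4.77% and 1.02% of all alleles. In Neuro-2a, where none passed below, 3 of the 42 tested had an unadjusted edgeR p under 0.05 in that direction. Of all 1471 alleles tested in that line, 131 did. Across lines 11 of the 43 were above the input in at least 1, 3 were below, and 29 passed in neither direction. The share of all alleles that passed in at least 1 line was not computed, so these counts across lines have no background beside them.

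The non-member alleles called above the input in 3 lines numbered 3 among these placements. Beside ALMS1, allele 2 with 50 bases in front had fitted log2 activities of 1.39 ± 0.13 in SH-SY5Y (edgeR adjusted p = 0.00605), 1.61 ± 0.09 in PC-12 (edgeR adjusted p = 0.00477) and 1.10 ± 0.14 in HEK-293T (edgeR adjusted p = 0.035). Its log2 ratios, from 0.46 to 1.43, were above 0.5 in 10 of 11 libraries. The other alleles were allele 2 of the ANKRD27 SNP and allele 1 of the OTUD7B SNP, both with 50 bases in front, with median log2 ratios of 0.60 and 0.61. Without Neuro-2a replicate 2 the Neuro-2a call at ANKRD27 was lost (edgeR adjusted p = 0.0533), and without HEK-293T replicate 3 the HEK-293T call at OTUD7B (edgeR adjusted p = 0.0535).

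Further placements were above the input in 1 or 2 lines. At DPEP1, allele 1 with 150 bases in front ran from 0.39 to 1.17 in log2 ratio and passed in SH-SY5Y at a fitted log2 activity of 1.05 ± 0.20 (edgeR adjusted p = 0.0305) and in HEK-293T at 1.04 ± 0.16 (edgeR adjusted p = 0.0423). Both calls were lost without replicate 3 of the line (edgeR adjusted p = 0.0629 and 0.0779). On the same fragment allele 2 passed in no line, with log2 ratios of -0.59 to 0.97 in the libraries numbered 1, 4.44 to 5.07 in the others and an input mean of 562.7 counts. The centred allele 2 of position 84581411 near ZSCAN2, with values as widely split, passed in SH-SY5Y at 4.56 ± 1.02 (edgeR adjusted p = 0.0411), a call lost without replicate 2 or 3 (edgeR adjusted p = 0.0872 and 0.0828). In ANKRD63 the centred allele 2 ran from 0.13 to 2.57 and passed in Neuro-2a at 2.45 ± 0.41 (edgeR adjusted p = 0.0298), a call lost without replicate 2 or 3 (edgeR adjusted p = 0.0677 and 0.055). The centred allele 2 in MSRA had a count of 0 in Neuro-2a replicate 1 and HEK-293T replicate 1 and 0.52 to 2.62 elsewhere. It passed in SH-SY5Y at 1.43 ± 0.33 (edgeR adjusted p = 0.0436), and was lost without replicate 2 or 3 (edgeR adjusted p = 0.0905 and 0.0937). The centred allele 2 in LIMA1 passed in PC-12 at 1.15 ± 0.20 (edgeR adjusted p = 0.0417). With 150 bases in front, allele 1 in ALG12 passed in SH-SY5Y at 1.15 ± 0.20 (edgeR adjusted p = 0.0248), as did allele 1 in OTUD7B at 2.34 ± 0.47 (edgeR adjusted p = 0.0344), whose input mean was 186.3 counts.

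At MSRA, allele 2 lay on different sides of the input in different placements. With 150 bases in front, allele 2 of the MSRA SNP fell below the input in SH-SY5Y at a fitted log2 activity of -1.68 ± 0.15 (edgeR adjusted p = 0.00543) and in HEK-293T at -1.74 ± 0.26 (edgeR adjusted p = 0.0423). Without HEK-293T replicate 3 the second of these gave an edgeR adjusted p of 0.0779. Allele 1 in the same placement did not share this and passed in no line. Its log2 ratios were -0.92 to -0.80 in the libraries numbered 1 and 0.47 to 3.93 in the others, with an input mean of 597.7 counts. With 100 bases in front allele 1 passed above the input in Neuro-2a at 1.15 ± 0.15 (edgeR adjusted p = 0.0226) and in PC-12 at 0.69 ± 0.13 (edgeR adjusted p = 0.0491). These differences between placements were not tested as such.

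The tests of partner alleles and other placements depended on single libraries. Together they gave 13 alleles above the input in SH-SY5Y, 7 in Neuro-2a, 8 in PC-12 and 6 in HEK-293T. Without RNA replicate 1 these counts were 29, 23, 35 and 18, but the share of all alleles called above the input was then 30.7% in SH-SY5Y, 25.1% in Neuro-2a, 39.5% in PC-12 and 19.4% in HEK-293T. Without PC-12 replicate 3 the count was 40, with 37.5% of all alleles above. These PC-12 fits rest on a single RNA library, take their spread from the input, and called a further 50.7% and 40.4% of all alleles below it. The count was 4 without Neuro-2a replicate 2, 11 without Neuro-2a replicate 3 and 10 without HEK-293T replicate 2, with 4.69%, 5.98% and 4.23% of all alleles above. Without any 1 of the 3 input libraries all 4 counts were 0, and 0% of all alleles were then called above the input in each line. The edgeR adjusted p of the 39 calls in either direction lay between 0.0738 and 0.347 in those fits. In the same order of lines DESeq2 called 26, 22, 29 and 20 of these alleles above the input, where it called 18.8%, 17.9%, 22.2% and 15.6% of all alleles. Limma-voom called 7, 7, 9 and 6, where it called 4.61%, 4.08%, 7.06% and 1.6% of all alleles. The p-values rest on a spread fitted over RNA and input libraries together, so they do not measure the spread between RNA libraries alone. The RNA libraries are called biological replicates in the labels, while the input libraries come from 1 plasmid pool.

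Each member was above the limit in all 4 lines by its choice, and its level is compared between lines as a description. The median over the 16 members of the mean log2 ratio was 1.41 in SH-SY5Y, 1.64 in Neuro-2a, 1.40 in PC-12, and 1.32 in HEK-293T. SH-SY5Y had the highest mean for 7 members, Neuro-2a and PC-12 for 4 each, and HEK-293T for 1. HEK-293T had the lowest mean for 7, Neuro-2a for 4, SH-SY5Y for 3 and PC-12 for 2. The same counts over all alleles were not computed, so these have no background beside them. Between the highest and the lowest line the means of a member differed by 0.20 to 1.03, with a median of 0.40 on the log2 scale. The libraries of 2 lines did not overlap in 12 of the 96 pairs of lines of the members, where 13.8% of such pairs did not overlap over the 1033 alleles with no 0. These 12 pairs belonged to 6 members, those of LIMA1, ANKRD63, ANKRD27, ALMS1 and MAD1L1 and the PPP2R3A member with 150 bases in front.

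For allelic differences, the fragments with a member are described only, since the rule used 1 of their alleles. Of the 12 with both alleles, the PPP2R3A fragment with 150 bases in front was the single one whose member was higher than its partner in all 11 libraries, by 0.22 to 2.27 with a median of 1.14. The difference was 0.22 to 0.33 in the libraries numbered 1 and 1.14 to 2.27 in the others. Fitted log2 allelic effects there, allele 2 over allele 1, were 1.26 ± 0.52 in SH-SY5Y, 1.00 ± 0.39 in Neuro-2a, 0.76 ± 0.29 in PC-12 and 0.98 ± 0.38 in HEK-293T (SE). The centred PPP2R3A fragment had a median difference of 2.23, with the member higher in 9 of 11. That difference was -0.09 to 0.08 in the libraries numbered 1 and 2.10 to 4.21 in the others. At ALG12 the member, allele 1, was higher in 9 of 11, by a median of 0.73, at MSRA in 8 and at ANKRD27 in 7. In the libraries numbered 1 these differences were -0.10 to 0.41, -0.15 to 0.44 and -0.10 to -0.04 in the same order. In the others they were 0.55 to 6.77, 0.52 to 1.76 and 0.37 to 0.85. At OTUD7B, MFAP4 and ALMS1 the member was higher in 4 of 11, 5 of 11 and 3 of 9 libraries. The OTUD7B member was the higher in each library numbered 1 (0.14 to 0.74) and the lower in the others (-1.08 to -0.15).

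Allelic effects were tested on the fragments of these SNPs with no member, which the rule did not use. They numbered 19 in SH-SY5Y and PC-12 and 18 in Neuro-2a and HEK-293T. After adjustment edgeR called 0 of them in each line, against 0.166% of all fragments in SH-SY5Y, 0.187% in Neuro-2a and 0% in PC-12 and HEK-293T. An unadjusted edgeR p under 0.05 was found for 5 in SH-SY5Y, 3 in Neuro-2a, 2 in PC-12 and 1 in HEK-293T. Over all fragments tested it was found for 81 of 601, 58 of 534, 46 of 635 and 25 of 606 in the same order. DESeq2 called 2, 4, 2 and 0 in that order, where it called 4.49%, 12.7%, 10.7% and 0.99% of all fragments, and 0 were called by limma-voom. The smallest unadjusted edgeR p among them was 0.00804, for the ANKRD63 fragment with 150 bases in front in Neuro-2a, at a log2 allelic effect of 0.94 ± 0.23. Without RNA replicate 1 edgeR called 9 of these fragments in SH-SY5Y, 8 in Neuro-2a, 18 in PC-12 and 6 in HEK-293T, where it called 46.9%, 30.5%, 89.3% and 20.8% of all fragments. Without PC-12 replicate 3 it called 11, with 53.9% of all fragments, and both PC-12 fits took their spread from the input.

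By the rule members had at least 500 counts on average in the plasmid input, so they could not be rare there. Their mean input counts had a median of 5487.5, between 625.7 and 12827.7, where the 1378 alleles had a median of 4060.5. The coefficient of variation of the input over DNA1 to DNA3 had a median of 3.70% for the members and 2.76% for the 1378 alleles. The median over members of their median log2 ratio was 1.42, from 0.94 to 3.02. Members were not a separate group at the limit: 18 alleles exceeded 0.5 in 10 libraries and 41 in 9, while 585 exceeded it in none.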

How the data were processed

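Each cell line has 1 deposited table of raw counts, not normalized, with a row for each allele of a fragment and columns for its RNA libraries and the 3 input libraries, per the file headers. Per the labels' protocols, input was amplified by PCR from the plasmid pool and polyadenylated RNA was reverse-transcribed and amplified. The submitters' processing notes name limma 3.40.6. The aligner, the counting tool and the build of the positions were not found in those notes or in the labels. An allele at 0 in all columns of a table was taken as absent from it.

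For the log2 ratio, counts were divided by the total of all alleles in that table. Tests used R 4.3.3 and edgeR 4.0.16: the quasi-likelihood test, two-sided, with TMM library sizes (trimmed mean of M values), over alleles with a mean count of at least 10, adjusted by Benjamini-Hochberg over the table at 0.05. Activity was RNA against input. The allelic effect was the interaction of allele and RNA with library as a term. SEs were derived from the estimate and F. Scripts were tested on simulated data. DESeq2 1.42.0 and limma-voom (limma 3.58.1) were alternatives. PCR reads are not independent molecules, so depth bounds counting error alone.

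The members, lists and tests were chosen with earlier results of these data known. Named alleles were all SNPs with 2 members, the 12 members with the highest lowest value, their partners and other placements, and the 3 alleles on either side of the limit.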

Additional observations from a re-analysis of the deposited data

Results flagged for a closer look

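The libraries of a pair of lines lay on opposite sides of the input at 2 alleles of the member SNPs, neither of them a member. Neither difference was tested, and the share of all alleles with such a pair of lines was not computed. In FAM86B3P, allele 1 of position 8240516 on chromosome 8, placed with 50 bases in front, exceeded the input in each Neuro-2a library and was less abundant in each HEK-293T library. Its mean log2 ratio was 0.69 in Neuro-2a and -0.59 in HEK-293T, a difference of 1.28. Against the input its fitted log2 activities were 0.98 and -0.45, neither past the threshold (edgeR adjusted p = 0.109 and 0.423). In LIMA1, allele 2 of position 50187864 on chromosome 12, also with 50 bases in front, was less abundant than the input in each SH-SY5Y library and exceeded it in both PC-12 libraries. Its mean log2 ratio was -0.36 in SH-SY5Y and 0.55 in PC-12, a difference of -0.91. Against the input its fitted log2 activities were -0.16 and 0.77, again neither past the threshold (edgeR adjusted p = 0.664 and 0.0848).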

How the results depend on the processing

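The 16 members became 75 with a limit of 0, 5 with a limit of 1, 27 with TMM library sizes, and 155 without the libraries numbered 1 of every line. All 16 were bound to remain with a limit of 0 or without the libraries numbered 1, since those settings can only add members. TMM library sizes raised every member value, by 0.06 to 0.31 on the log2 scale, so all 16 stayed there too. The limit of 1 kept 5 of the 16. Leaving out single RNA libraries, which likewise can only add members, gave 16 to 22. The other settings (input minimum, totals, each input library alone, a 0 left out, the libraries numbered 3 left out) gave 14 to 21. Non-member alleles above the input, in the order SH-SY5Y, Neuro-2a, PC-12, HEK-293T, were 13, 7, 8 and 6 by edgeR. They were 26, 22, 29 and 20 by DESeq2, 23, 13, 20 and 12 at an adjusted p of 0.1, and 1, 0, 1 and 0 at 0.01. Limma-voom gave 7 in SH-SY5Y and was within 1.5 times elsewhere, as were both count minimums. Leaving out single libraries gave 0 to 29 in SH-SY5Y, 0 to 23 in Neuro-2a, 0 to 40 in PC-12 and 0 to 18 in HEK-293T. With the replicate number as a block the counts were 0 in all 4 lines, and 0% of all alleles were then called above the input in each. The labels name no day or batch that RNA and input libraries of a number share. Deviations of RNA and input libraries of the same number correlated at -0.090 to 0.171 across alleles. Allelic effects on fragments without a member, 0 in each line by edgeR with or without the block, were 2 in SH-SY5Y, 4 in Neuro-2a and 2 in PC-12 by DESeq2. For these, leaving out single libraries gave 0 to 9 in SH-SY5Y, 0 to 8 in Neuro-2a, 0 to 18 in PC-12 and 0 to 6 in HEK-293T. No direction reversed. The cause of these shifts was not tested. Input depth limits the scarcest alleles most.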
